A study of Mus musculus with 12 samples.

Results

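The 7 genes Slc17a7, Neurod1, Neurod2, Neurod6, Tbr1, Fezf2 and Emx1, which mark the glutamate-releasing projection neurons of the cerebral cortex, were followed across 12 arrays of mouse anterior striatum. They were taken as the probe sets whose only symbol in the platform annotation is 1 of these names. All 7 were found, each with 1 probe set, among 19938 genes with a symbol of their own. The mice were adolescent males of the outbred Swiss CD-1 stock, and RNA was taken from their anterior striata at the end of a 10-day conditioned place preference procedure, in which a drug given 15 minutes beforehand is paired with a compartment. There were 4 groups of 3 arrays, given saline, ethanol, mephedrone (a synthetic cathinone stimulant) or mephedrone + ethanol, the last called the combination below. The labels give no dose, and do not say whether an array holds RNA of 1 animal or of several, so the p-values take in only the variation among these 12 samples, part of which may be technical.

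The projection neurons of the striatum release GABA, while those of the cortex that lies over it release glutamate. Slc17a7 encodes VGLUT1, the transporter that loads glutamate into synaptic vesicles of cortical neurons. The other 6 genes encode transcription factors of the cortical excitatory lineage: Neurod1, Neurod2 and Neurod6 are basic helix-loop-helix proteins, Tbr1 is a T-box protein of deep-layer neurons, Fezf2 a zinc finger protein of subcortically projecting neurons and Emx1 a homeodomain protein of the dorsal telencephalon. Cortical axons end in the striatum, but the messenger RNAs of these genes lie mostly in cell bodies. Some of the 7 are also used by excitatory neurons of the hippocampus, claustrum and amygdala.

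The values are log2 differences from the median of a probe set over the 12 arrays, so a value of 1 is a level 2-fold above that median, and the 12 values of each gene lie around 0 by construction. The medians of the arrays over all probe sets lay between -0.0048 and 0.0039. The spread over all probe sets was widest in combination replicate 3 (SD 0.169) and ethanol replicate 1 (SD 0.127), against 0.068 to 0.102 in the other 10 arrays. All 7 probe sets of the striatal genes Ppp1r1b, Pde10a, Rgs9, Drd1, Drd2, Penk and Tac1 stood at 8 or above on the log2 scale in all arrays, read from the numerical step of the deposited values. So did the probe sets of Slc17a7, Neurod2, Fezf2 and Emx1, and 51.2% of all probe sets with 1 symbol. Those of Neurod1, Neurod6 and Tbr1 were below 8 in at least 1 array.

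Start regions of 4 of the genes are shown because 3 of them varied most over the arrays and largely in parallel, while Emx1 did not follow them. They run from 250 bases before to 50 bases after the RefSeq transcript start in build GRCm38.p6, and capitals mark E-boxes, the CANNTG letters that basic helix-loop-helix proteins such as the Neurod family bind.

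Tbr1, GRCm38.p6 chr2:61804203-61804502, plus strand: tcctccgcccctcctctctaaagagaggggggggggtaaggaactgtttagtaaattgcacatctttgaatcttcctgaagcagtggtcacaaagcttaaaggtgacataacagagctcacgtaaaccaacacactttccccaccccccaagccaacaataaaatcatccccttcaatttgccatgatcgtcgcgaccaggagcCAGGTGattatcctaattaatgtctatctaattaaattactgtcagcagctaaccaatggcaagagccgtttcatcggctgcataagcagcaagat

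Slc17a7, GRCm38.p6 chr7:45163671-45163970, plus strand: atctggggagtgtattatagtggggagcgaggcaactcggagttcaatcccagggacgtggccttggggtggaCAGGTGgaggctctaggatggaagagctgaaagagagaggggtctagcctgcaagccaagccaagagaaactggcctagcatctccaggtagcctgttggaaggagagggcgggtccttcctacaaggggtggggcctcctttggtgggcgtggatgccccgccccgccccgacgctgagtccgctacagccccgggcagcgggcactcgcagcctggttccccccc

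Neurod6, GRCm38.p6 chr6:55681214-55681513, minus strand: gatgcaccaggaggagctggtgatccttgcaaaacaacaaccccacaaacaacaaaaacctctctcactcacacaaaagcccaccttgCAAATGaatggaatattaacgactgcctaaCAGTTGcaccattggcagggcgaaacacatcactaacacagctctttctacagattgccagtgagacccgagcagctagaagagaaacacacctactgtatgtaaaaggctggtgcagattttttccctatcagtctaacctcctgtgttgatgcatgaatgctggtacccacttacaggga

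Emx1, GRCm38.p6 chr6:85187681-85187980, plus strand: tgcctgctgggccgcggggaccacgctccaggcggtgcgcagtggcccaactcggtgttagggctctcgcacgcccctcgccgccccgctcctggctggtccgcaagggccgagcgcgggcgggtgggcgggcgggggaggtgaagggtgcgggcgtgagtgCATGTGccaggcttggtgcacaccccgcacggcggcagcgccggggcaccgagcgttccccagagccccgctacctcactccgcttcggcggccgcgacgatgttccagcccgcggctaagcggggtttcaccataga

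An E-box stood in 6 of the 7 start regions (in all but that of Fezf2), against 72.3% of 32851 start regions of the same length in the RefSeq table. CANNTG reads the same on both strands. Its form CAGATG, searched on both strands and contained in the E-box, was found in the region of Neurod2 alone, against 17.2% of all regions. The homeodomain core TAATTA was found in the region of Tbr1 alone, with 2 matches (5.29% of all regions), and the T-box core GGTGTGA in none of the 7 (3.98% of all regions). A match is a description of the letters and not a bound site.

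The 7 genes varied between arrays of the same treatment more than between treatments, and none of them passed the test in any comparison of treatments. Between treatments lay 9.42% to 17.0% of their variation, against a median of 26.9% over all genes. Tbr1 spanned 2.67 in log2 from its lowest to its highest array (6.38-fold), Slc17a7 2.34 (5.07-fold), Neurod6 1.97 (3.91-fold) and Fezf2 1.06 (2.09-fold). Neurod2 spanned 0.64, Emx1 0.39 and Neurod1 0.30. In a bulk sample, fewer cells of a type and less RNA per cell cannot be told apart.

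Tbr1 stood at -0.92, 0.75 and -0.18 in saline replicates 1, 2 and 3. The ethanol arrays read 0.26, -1.14 and -0.0023, those of mephedrone -0.12, 0.64 and 0.0023, and those of the combination -0.22, 0.014 and 1.54. Each group thus held an array far from the others, high in saline, mephedrone and the combination and low in ethanol, with saline also holding a low one. Its group means were -0.12 ± 0.84 (SD, n = 3), -0.29 ± 0.74, 0.18 ± 0.41 and 0.44 ± 0.95 in the same order of groups.

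Slc17a7, the vesicular glutamate transporter, had nearly the same order of arrays. Saline arrays 1 to 3 read -0.75, 0.82 and -0.037, ethanol arrays 0.46, -1.14 and -0.016, mephedrone arrays -0.10, 0.61 and 0.016, and combination arrays -0.21, 0.072 and 1.20. Group means were 0.010 ± 0.79, -0.23 ± 0.82, 0.17 ± 0.38 and 0.35 ± 0.75 (SD, n = 3 each). The 3 saline arrays alone covered 1.58 in log2, a 2.98-fold difference between replicate 2 and replicate 1, which were treated alike. All 4 groups overlapped.

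Among the Neurod genes the size of the swings differed. Neurod6, which marks differentiated pyramidal neurons, read -0.52, 0.57 and -0.010 in saline arrays 1 to 3, then 0.43, -0.74 and 0.010 in ethanol arrays, -0.091, 0.62 and -0.10 in mephedrone arrays and -0.085, 0.064 and 1.22 in combination arrays. Neurod2, which acts in maturing and adult cortical neurons, read -0.26, 0.11 and 0.0018, then 0.041, -0.11 and -0.0018, then -0.093, 0.16 and 0.015, then -0.10, -0.023 and 0.38 in the same groups. Neurod1, best known in immature neurons and endocrine cells, kept within -0.084 and 0.21, with its highest values in mephedrone replicate 2 (0.21), combination replicate 3 (0.21) and saline replicate 2 (0.16). The high arrays were therefore the same 3 for all Neurod genes, at different amplitudes. From ethanol replicate 2 to combination replicate 3 the difference was 3.91-fold for Neurod6, 1.41-fold for Neurod2 and 1.19-fold for Neurod1.

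Fezf2, the transcription factor of subcortically projecting neurons, read -0.22, 0.42 and -0.023 in saline arrays 1 to 3, then 0.13, -0.36 and 0.023 in ethanol arrays, 0.082, 0.23 and -0.11 in mephedrone arrays and -0.099, -0.097 and 0.70 in combination arrays. Of the 7 genes it lay nearest to the mean of the other 6, with a root mean square difference of 0.11 in log2 over the 12 arrays. Emx1, the homeodomain gene, lay at a distance of 0.39, as did a gene at 0 in every array (0.39). Tbr1 (0.42) and Slc17a7 (0.35) were also far from that mean, farther than a gene at 0 in every array (0.28 and 0.29). They had wider swings than the mean but the same sign in 9 of 12 arrays. The values of Emx1 were 0.035, -0.0053 and -0.015 in saline arrays, -0.16, 0.086 and 0.13 in ethanol arrays, -0.10, 0.23 and 0.0053 in mephedrone arrays and -0.10, -0.092 and 0.038 in combination arrays. Emx1 was lowest in ethanol replicate 1 and stood at 0.086 in ethanol replicate 2, where Tbr1, Slc17a7, Neurod6 and Fezf2 were lowest. It shared the sign of the mean of the other 6 in 5 of 12 arrays, against 8 to 11 for the other genes.

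**Figure D1:**
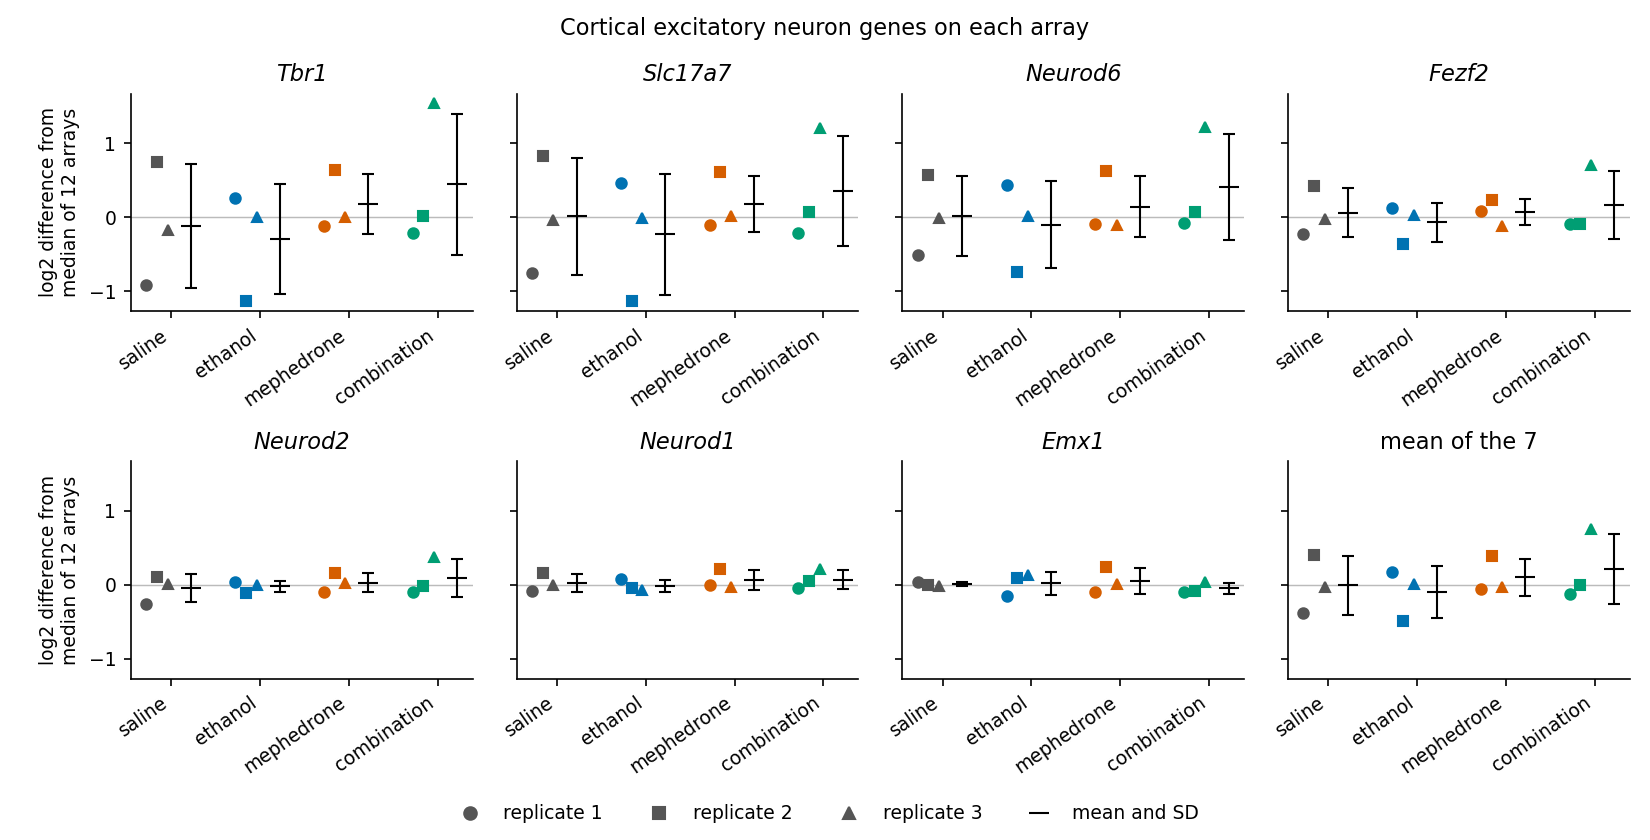
Values of the 7 genes and of their mean on the 12 arrays (vertical axis, log2 difference from the median of 12 arrays) by treatment group, with 1 marker shape per replicate number and black lines for the mean and SD of 3 arrays. Tbr1, Slc17a7 and Neurod6 are highest in combination replicate 3 and lowest in ethanol replicate 2, and the groups overlap in every panel.

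By array, the mean of the 7 genes was lowest in ethanol replicate 2 (-0.49) and saline replicate 1 (-0.39). It was -0.12 in combination replicate 1, -0.061 in mephedrone replicate 1, -0.037 in saline replicate 3, -0.030 in mephedrone replicate 3, -0.0023 in combination replicate 2 and 0.0091 in ethanol replicate 3. The high arrays were ethanol replicate 1 (0.18), mephedrone replicate 2 (0.39), saline replicate 2 (0.40) and combination replicate 3 (0.76), 1 from each group. All 7 genes were above 0 in combination replicate 3 and mephedrone replicate 2, and 6 of 7 in saline replicate 2 and ethanol replicate 1. Combination replicate 3 held the highest value of 5 genes and mephedrone replicate 2 that of Neurod1 and Emx1. Ethanol replicate 2 held the lowest value of 4 genes, saline replicate 1 that of Neurod1 and Neurod2, and ethanol replicate 1 that of Emx1.

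The group means of that per-array mean ran from ethanol (-0.10 ± 0.35, SD, n = 3) through saline (-0.0078 ± 0.40) and mephedrone (0.099 ± 0.25) to the combination (0.21 ± 0.48). They spanned 0.31, while the 3 arrays within a group spanned 0.88 for the combination, 0.79 for saline, 0.67 for ethanol and 0.45 for mephedrone. No neighbours in this order differed by more than their SD. The range within a group exceeded the range of the group means in all 4 groups for Tbr1, Slc17a7, Neurod6, Fezf2, Neurod2 and Neurod1. For Emx1 it did so in 3 of 4 groups, its 3 saline arrays lying within 0.050. Means of 3 arrays vary less than single arrays, so a wider range within groups is by itself no trait of these genes. The share of all genes with such ranges was not counted. Of the variation of a gene over the 12 arrays, the share between groups was 17.0% for Tbr1, 13.5% for Neurod6, 12.3% for Slc17a7, 11.6% for Neurod2, 11.2% for Emx1, 10.2% for Neurod1 and 9.42% for Fezf2, against a median of 26.9% over all 19938 genes. The SD within groups was 0.76 for Tbr1, 0.71 for Slc17a7, 0.58 for Neurod6 and 0.32 for Fezf2, at percentiles 99.96, 99.95, 99.87 and 99.31 among all genes. The median over all genes was 0.066, and those of Neurod2 (0.18), Emx1 (0.12) and Neurod1 (0.12) also lay above it.

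In the mephedrone main effect, the mean of the 6 arrays given mephedrone minus that of the 6 not given it, 6 of the 7 genes lay above 0 and Emx1 below. The differences were 0.51 for Tbr1 (95% interval -0.29 to 1.32), 0.37 for Slc17a7 (-0.37 to 1.12), 0.31 for Neurod6 (-0.30 to 0.93), 0.12 for Fezf2, 0.094 for Neurod2, 0.059 for Neurod1 and -0.015 for Emx1. None passed limma's test with Benjamini-Hochberg adjustment over all genes at 0.05 (smallest adjusted p = 0.637, for Tbr1), a call that 0.115% of all genes received. None of the 7 had an unadjusted p under 0.05, against 12.6% of all genes, and none separated the 6 arrays from the other 6, against 1.27%. Their median difference was 0.12 beside 0.0038 over all genes. Without combination replicate 3 the mean of the 7 in this comparison was 0.073 in place of 0.21, and Tbr1 was 0.24. That mean was 0.11 without saline replicate 1 or ethanol replicate 2, and 0.14 without mephedrone replicate 2.

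The combination minus ethanol gave the largest differences of the 9 comparisons made for Tbr1, Slc17a7 and Neurod6. Tbr1 was 0.74 (SE 0.52, 95% interval -0.41 to 1.88), Slc17a7 0.59 (SE 0.48, -0.47 to 1.65) and Neurod6 0.50 (SE 0.40, -0.37 to 1.37). Fezf2 was 0.24, Neurod2 0.11, Neurod1 0.082 and Emx1 -0.070. Again none passed in limma (smallest adjusted p = 0.694, against 0.0251% of all genes called), none had an unadjusted p under 0.05 (9.73% of all genes) and none was without overlap (13.2%). The median of the 7 was 0.24, beside -0.00067 over all genes. The mean of the 7 was 0.31 with all arrays, 0.12 without ethanol replicate 2 and 0.040 without combination replicate 3, where Neurod2 was -0.037 and Fezf2 -0.026.

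Against saline, the combination stood at 0.56 for Tbr1 (95% interval -0.58 to 1.70), 0.39 for Neurod6, 0.34 for Slc17a7, 0.14 for Neurod2, 0.11 for Fezf2, 0.043 for Neurod1 and -0.056 for Emx1. The smallest adjusted p in limma was 0.721, and 0.0100% of all genes were called. None had an unadjusted p under 0.05 (12.1% of all genes) or lacked overlap (17.4%). Without combination replicate 3, Tbr1 was 0.014 and the other 6 were below 0, from -0.011 for Neurod2 to -0.16 for Fezf2, and the mean of the 7 went from 0.22 to -0.055. Without saline replicate 1 that mean was 0.027. The interval of Tbr1 with all arrays includes both no difference and a rise of over 3-fold.

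**Figure D2:**
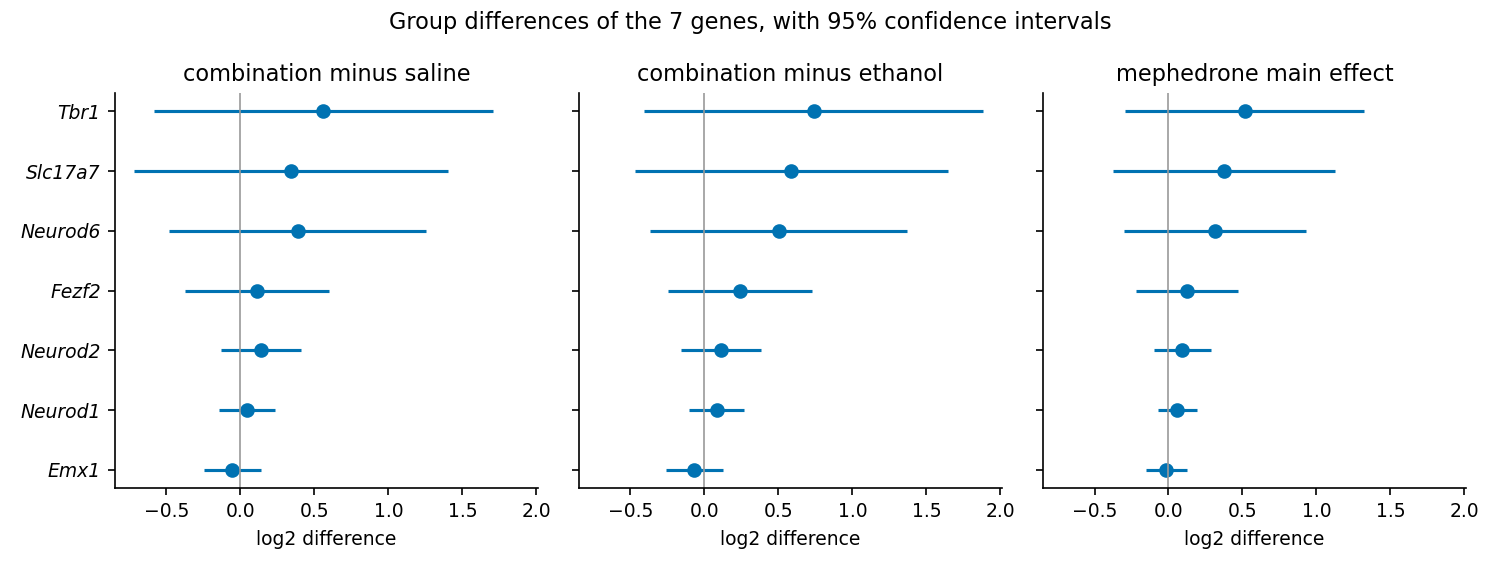
Differences of the 7 genes (horizontal axis, log2) for the combination minus saline, the combination minus ethanol and the mephedrone main effect, with points for the estimates of the fit and lines for 95% confidence intervals. Every interval includes 0, and those of Tbr1, Slc17a7 and Neurod6 are the widest.

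The other comparisons held no call either. Ethanol minus saline had a median of -0.12 with 5 of 7 genes below 0, mephedrone minus saline 0.079 with all 7 above 0, and mephedrone minus ethanol 0.14 with all 7 above 0. The combination minus mephedrone had a median of 0.10 with 6 above 0, and the ethanol main effect -0.014 with 3 above 0. Over all genes the medians were 0.011, 0.0085, -0.0033, 0.0025 and 0.0088 in the order given, with 58.85%, 55.98%, 47.51%, 51.85% and 58.78% above 0. Most of the 7 shared their high and low arrays, so such counts are not 7 separate results. Leaving out 1 array at a time, the mean of the 7 was -0.084 to 0.31 for mephedrone minus saline. For mephedrone minus ethanol it was 0.0063 to 0.34. No gene of the 7 passed in limma in any of these 5 comparisons, and no other gene did either (0% called). At an unadjusted p under 0.05 they held none of the 7, against 4.98%, 7.23%, 6.28%, 3.31% and 4.57% of all genes in the order given. None of the 7 was without overlap, against 8.55%, 14.7%, 12.3%, 9.38% and 0.115% of all genes. The interaction sets the effect of ethanol in mice given mephedrone against its effect in mice not given it. It had a median of 0.23 with 6 genes above 0, beside a median of -0.0093 over all genes. The smallest unadjusted p of the 7 in limma was 0.391 and none of them was called. Of all genes, 3.54% had an unadjusted p under 0.05 and 0% were called. Asked for any difference among the 4 groups by limma's moderated F test, none of the 7 passed (smallest adjusted p = 0.911, for Tbr1), and 0.00502% of all genes were called. None had an unadjusted p under 0.05 in that test, against 8.35% of all genes. These comparisons share their control arrays, so they are not independent of one another.

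Other genes of cortical excitatory neurons were read from 3 further lists. Of 12 genes of glutamatergic and pyramidal neurons, the list mean ran from -0.28 in ethanol replicate 2 to 0.46 in combination replicate 3. These were also the extreme arrays for the mean of the 7 genes. In combination replicate 3, 10 of the 12 lay above 0 and 2, Slc17a8 and Itpka (named after their values were seen), below. Nrn1, a neurotrophic surface protein, spanned 2.63, with -1.12, 0.87 and -0.23 in the saline arrays, -1.15 in ethanol replicate 2, 0.85 in mephedrone replicate 2 and 1.49 in combination replicate 3. Cck, the neuropeptide cholecystokinin, spanned 1.88, with -0.86 in ethanol replicate 2 and 1.01 in combination replicate 3. Slc17a6, which encodes VGLUT2, the glutamate transporter of thalamic and other subcortical neurons, followed only in part. It was 0.63 in combination replicate 3, but higher in ethanol replicate 1 (1.51) and combination replicate 1 (0.80), and -0.33 in mephedrone replicate 2. No gene of this list passed in limma in any of the 9 comparisons.

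The 13 further transcription factors of cortical projection neurons that were matched moved less, with list means between -0.055 and 0.12. Nr2f1, which patterns cortical areas, and Mef2c, an activity-linked factor of cortical neurons, were highest in combination replicate 3 (0.79 and 0.68). Pou3f1 was lowest there, at -0.63, and highest in saline replicate 1, at 0.32. Of the 13, 7 lay above 0 in combination replicate 3 and 6 below. Of the 17 cortical layer genes the list mean was 0.29 in combination replicate 3 and between -0.089 and 0.059 in the others. Ccn2, a marker of the deepest cortical layer, stood at 1.24 in combination replicate 3 and was lowest in saline replicate 1 (-0.45) and ethanol replicate 2 (-0.42). Rasgrf2 read 1.16 in combination replicate 3 and 0.67 in ethanol replicate 1, and Cplx3 0.85 in combination replicate 3 with no other array above 0.13. Of the 17, 13 lay above 0 in combination replicate 3 and 4 below. The latter, named after their values were seen, were Syt6 (-0.63), Tle4 (-0.39), Rbp4 (-0.23) and Etv1 (-0.19), and each had its lowest value there. Tle4 and Etv1 are also among the 13 transcription factors. No gene of these lists passed in any of the 9 comparisons either (smallest F-test adjusted p among the 9 genes named from the 3 lists = 0.705).

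The genes whose 12 values came nearest to the mean of the 7, by root mean square difference in log2, were Mfsd4a (0.087), Cckbr (0.088), Tmem178 (0.090), Dkk3 (0.091) and Hs3st2 (0.11), followed by Olfm1, Kcnh7, St8sia5, Prss12 and Serinc2 (0.11 to 0.13). A gene at 0 in every array would lie at 0.33. Cckbr, a receptor for cholecystokinin, read -0.29 in saline replicate 1, -0.36 in ethanol replicate 2, 0.38 in saline replicate 2, 0.47 in mephedrone replicate 2 and 0.77 in combination replicate 3. Dkk3, a secreted glycoprotein of the Dickkopf family that is also in the hippocampal marker list, read -0.28, -0.45, 0.36, 0.33 and 0.57 in the same arrays. With combination replicate 3 left out of the ranking, 7 of the 10 names were kept, and Tmem178 (0.072), Dkk3 (0.078), Mfsd4a (0.086) and Cckbr (0.092) led over 11 arrays, where a gene at 0 would lie at 0.26. This nearness is a description of 12 arrays out of 19931 genes compared, and carries no test. None of the 13 genes in either ranking passed in limma in any comparison of treatments.

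**Figure D3:**
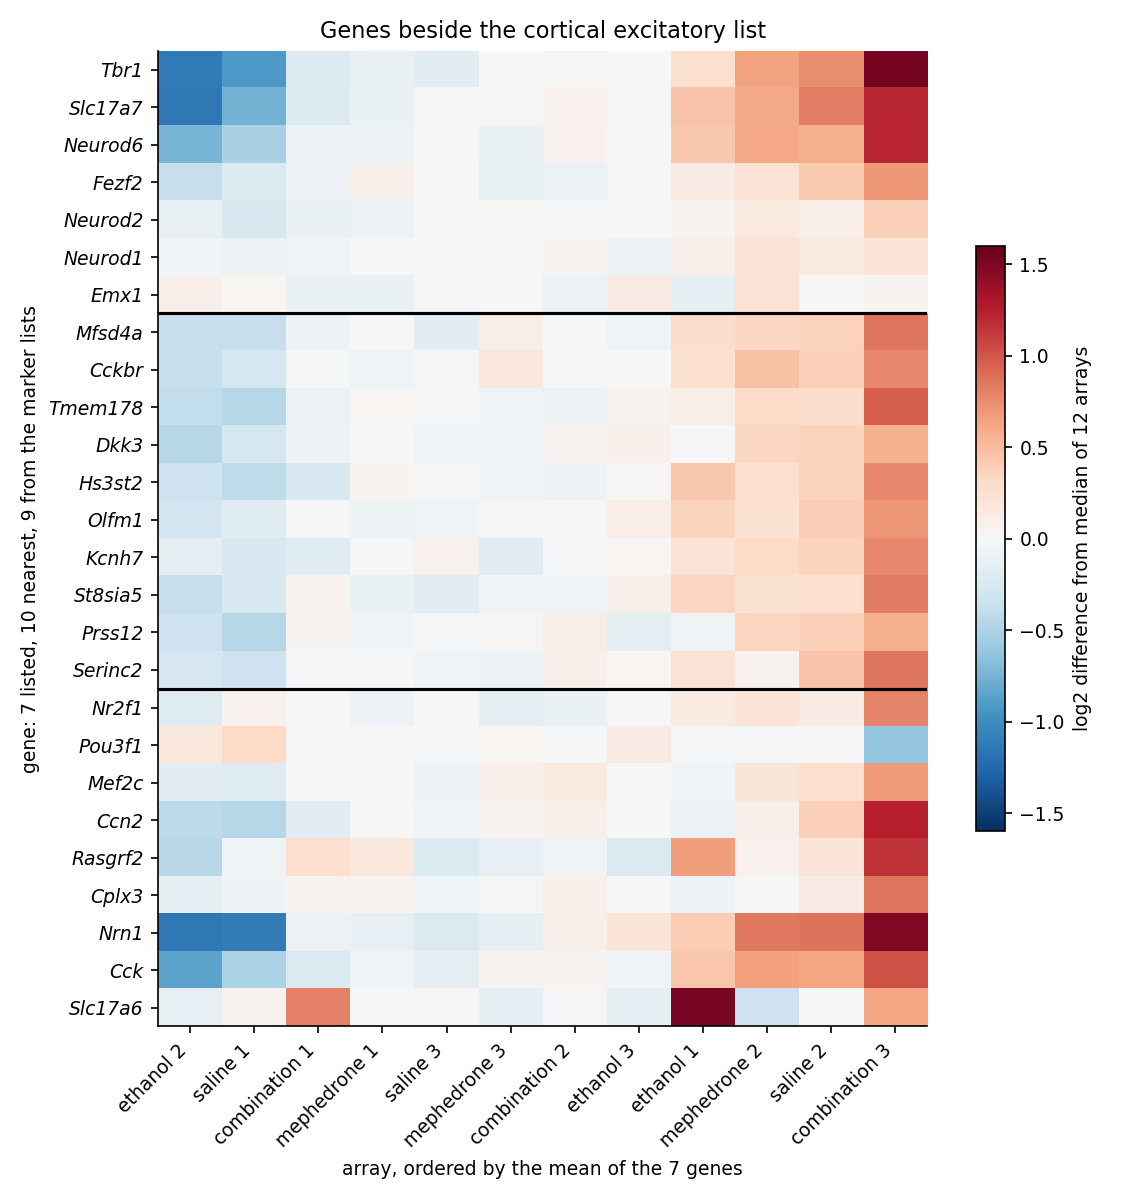
Values (colour, log2 difference from the median of 12 arrays) of the 7 genes, the 10 nearest genes and 9 genes of the further cortical lists on the 12 arrays, ordered from left to right by the mean of the 7 genes. Apart from Emx1, rows of the upper 2 blocks are below 0 in ethanol replicate 2 and saline replicate 1 and above 0 in combination replicate 3. Neurod1 is pale throughout. In the lowest block Pou3f1 runs the other way, and Nr2f1 and Slc17a6 are above 0 in saline replicate 1. Slc17a6 is red in combination replicate 3 but highest in ethanol replicate 1.

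Markers of other tissue were set beside the 7 genes. Of 13 listed choroid plexus genes 12 were matched, and their mean was 1.83 in combination replicate 3, 1.07 in saline replicate 2 and 0.79 in ethanol replicate 1, 3 of the 4 arrays with high cortical values. In mephedrone replicate 2, the fourth, it was the lowest of all arrays at -0.19, and it was 0.59 in mephedrone replicate 1 and in combination replicate 2, where the mean of the 7 was -0.061 and -0.0023. By group the choroid means ranged from -0.044 to 1.83 for the combination, -0.11 to 1.07 for saline, -0.10 to 0.79 for ethanol and -0.19 to 0.59 for mephedrone. The high value of the cortical genes in mephedrone replicate 2 thus came without a high choroid plexus value.

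Oligodendrocyte genes (11 of 12 matched) had a mean of 0.53 in combination replicate 3 and between -0.16 and 0.16 elsewhere, with -0.13 in mephedrone replicate 2. By group they ranged from -0.034 to 0.53 for the combination, 0.0017 to 0.16 for saline, -0.059 to 0.021 for ethanol and -0.16 to 0.029 for mephedrone. The mean of the 7 cortical genes was lowest in ethanol replicate 2. There the genes of striatal projection neurons (13 of 15 matched) had their highest mean (0.076). Their mean was lowest in combination replicate 3 (-0.34) and ethanol replicate 1 (-0.16). Their other values lay between -0.051 and 0.031, also in saline replicate 1 (0.015) and mephedrone replicate 2 (-0.013). By group the striatal means ranged from -0.34 to 0.0053 for the combination, -0.051 to 0.015 for saline, -0.16 to 0.076 for ethanol and -0.013 to 0.031 for mephedrone. Genes of cholinergic neurons (6 of 7 matched) were lowest in combination replicate 3 (-0.34) and saline replicate 2 (-0.22).

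Cortical interneuron genes, all 11 matched, had means between -0.062 and 0.12, with the lowest in saline replicate 2 and the highest in saline replicate 1. These means cover opposed genes: in combination replicate 3, 6 of the 11 lay above 0 and 5 below, from 1.13 for Pvalb to -0.88 for Reln. The list is not specific to cortex, since Gad1 and Gad2 (-0.11 and -0.22 there) belong to GABA neurons, which the striatum also holds. Hippocampal genes (9 matched) had means between -0.12 in ethanol replicate 2 and 0.11 in combination replicate 3. Those of claustrum and endopiriform genes (6 of 7 matched) lay between -0.25 and 0.29 in the same arrays. Within combination replicate 3 the genes of both lists were split, 6 above 0 and 3 below for hippocampus, 3 above and 3 below for claustrum. Nr4a2 of the claustrum list, named after its values were seen, read -1.015 in ethanol replicate 2 and 1.635 in combination replicate 3. Glutamatergic genes of the olfactory bulb and thalamus (7 matched) had means of 0.43 in ethanol replicate 1 and between -0.087 and 0.12 elsewhere. The high mean rested on Slc17a6 (1.51) and Prkcd (1.02), named after their values were seen. The other genes of the list lay between -0.0058 and 0.21 there. Prkcd also read 1.09 in mephedrone replicate 1. In combination replicate 3, 4 of the 7 lay above 0 and 3 below. Genes of meninges and fibroblasts (9 matched) had means of 0.23 in saline replicate 2, 0.17 in combination replicate 3, 0.11 in ethanol replicate 1 and -0.043 in mephedrone replicate 2. Of these 9, 4 lay above 0 in combination replicate 3 and 5 below, with the largest values for Igf2 (1.30) and Ogn (0.60). Ventricular ependyma, astrocytes, microglia and endothelium had list means between -0.11 and 0.28 on all arrays. In combination replicate 3 all 8 astrocyte genes lay above 0 and all 7 endothelial genes below. Of the ependyma genes 6 lay above and 2 below, and of the microglial genes 4 and 3. Ependyma means were 0.066 to 0.095 in the combination arrays and at most 0.042 in the others. In the mephedrone main effect 1 endothelial gene was called lower (adjusted p = 0.033 in limma), beside 0.115% of all genes called. No other gene of these marker lists was called in any of the 9 comparisons. The part of any of these tissues in the values of the 7 genes was not tested, and the absolute level of a marker is not given by values centred on the median.

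**Figure D4:**
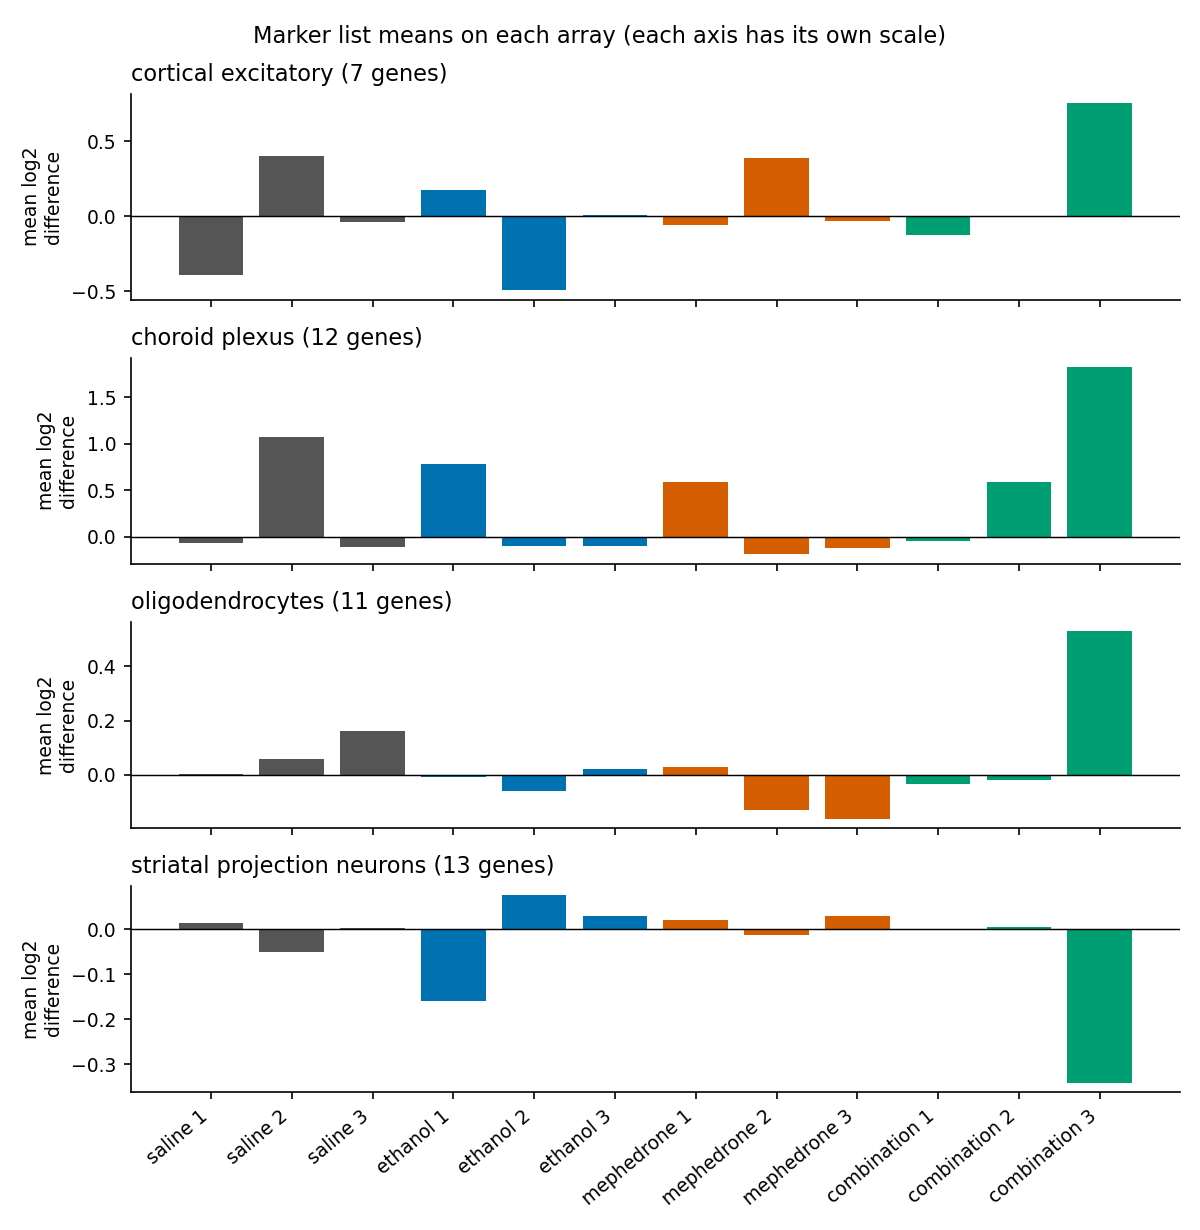
Mean log2 difference from the median of 12 arrays (vertical axes, each on its own scale) on each array for the 7 cortical excitatory genes and for marker lists of choroid plexus (12 genes), oligodendrocytes (11 genes) and striatal projection neurons (13 genes), with bars coloured by treatment group. Combination replicate 3 is the highest array in the first 3 panels and the lowest in the fourth, whereas mephedrone replicate 2 is high for the cortical genes alone.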

How the data were processed

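The authors deposited log2 values of 28853 probe sets on 12 arrays, made with RMA (background correction, quantile normalisation and probe summary) on build mm8 per the submitters' processing notes. GeneSpring GX 7.3.1 is the software given in the design text. The log2 scale and the centring on each probe set's median were read from the deposited values, as neither source states them. Whether a probe set stood at 8 or above was read from the step of single-precision numbers, with a tolerance of 0.2 of a step. Background can shrink differences of dim probe sets.

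Probe sets with 1 symbol (21789; 1621 had several and 5443 were not listed) were averaged per gene, giving 19938 genes, with no new normalisation or filter. The 7 members, the marker lists and the tests were chosen with earlier results of these data known. Group means of all 12 arrays were estimated in 1 limma fit (limma 3.58.1, R 4.3.3), with 8 residual and 3.43 prior degrees of freedom. Its two-sided p-values were adjusted by Benjamini-Hochberg over all genes, with a threshold of 0.05, and the fit was tested on simulated data. All 7 genes are named, with the 3 genes of widest range in each further cortical list and the 10 nearest genes. List symbols were updated through RefSeq synonyms (GRCm38.p6), and unmatched ones were not used here. The alternatives were probe sets in place of genes, quantile normalisation, array weights, a replicate block, only the arrays compared, only probe sets of 8 and above, and leaving out arrays. Precision is limited by having 3 arrays a group.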

Additional observations from a re-analysis of the deposited data

How the results depend on the processing

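Under 19 alternatives to the fit described above, none of the 7 genes was called in any of the 9 comparisons or in the F test, and the smallest adjusted p in limma of a member was 0.313. The mean of the 7 moved by less than its SD within groups (0.38) in every alternative and comparison. That SD is wider than the mean itself in any comparison (at most 0.31), so even a change of sign can stay within it. Leaving out 1 array at a time gave the mean of the 7 values of -0.055 to 0.42 for the combination minus saline. The values were 0.040 to 0.48 for the combination minus ethanol and 0.073 to 0.31 for the mephedrone main effect. A replicate block could not move the mean of the 7 in these comparisons, since every group holds the same set of replicate numbers. It thus stayed at 0.22, 0.31 and 0.21, and only the p-values could differ. The block changed no call. The replicate numbers of the titles were not taken to pair the arrays, since same-numbered arrays of different groups had correlations of their deviations between -0.28 and 0.43 over 19938 genes, over 0.1 in 7 of 18 pairs, and 5 of 12 arrays matched best with their own number.

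Of 383 recomputed differences of single members in those 3 comparisons, 23 changed sign. Many of the 383 could not change, so this share does not measure how stable the signs are. Each gene has 1 probe set, so probe sets in place of genes and only probe sets of 8 and above return the same difference. So do a replicate block, only the arrays compared, and leaving out an array of neither group compared. For the combination minus saline, Fezf2 was -0.016 with quantile normalisation, which also shrinks the widest array, and with array weights Fezf2 was -0.082 and Neurod1 -0.017. Without combination replicate 3 and ethanol replicate 1 together, Slc17a7 was -0.081, Neurod1 -0.028, Neurod2 -0.011, Neurod6 -0.025 and Fezf2 -0.16 in that comparison, and Neurod2 was -0.0041 for the combination minus ethanol. Leaving out 1 array at a time, the combination minus saline ranged from -0.081 to 0.75 for Slc17a7, -0.028 to 0.11 for Neurod1, -0.011 to 0.23 for Neurod2, -0.025 to 0.67 for Neurod6 and -0.16 to 0.29 for Fezf2, each lowest without combination replicate 3. For the combination minus ethanol it ranged from -0.037 to 0.20 for Neurod2 and -0.026 to 0.37 for Fezf2, and for the mephedrone main effect from -0.062 to 0.022 for Emx1 and -0.0094 to 0.21 for Fezf2. In the other 6 comparisons 112 of 766 recomputed differences changed sign, with the same limit, and none was called. The cause of these changes was not tested. Only probe sets of 8 and above could be read for 4 of the 7 genes (Slc17a7, Neurod2, Fezf2 and Emx1).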
